A study of Mus musculus with 3 samples.

Results

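The heat shock and unfolded protein response genes followed here are 35 named genes, listed by symbol and grouped by role, with earlier results of these data known, out of 33696 features listed in the kidney libraries. All 35 were found. They fall into 6 roles: 12 cytosolic heat shock genes, 2 genes of the mitochondrial chaperonin, 11 chaperones and folding enzymes of the endoplasmic reticulum (ER), 3 genes of ER-associated degradation, 3 ER stress sensors, and 4 genes for stress transcription factors and Trib3. The study asked what senolytic treatment does to the aged kidney. Male mice formed 3 groups: young mice of 3 to 4 months, aged mice of 20 months given vehicle, and aged mice of 20 months given D+Q, which by common usage stands for dasatinib and quercetin. Kidneys were digested with collagenase II at 37 °C and made into 3′ single-cell libraries, 1 per group. The labels give neither the strain, nor the dose, nor how many mice went into a library.

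Heat shock proteins are chaperones that hold or refold unfolded proteins, and the factor HSF1 switches on their genes when unfolded protein builds up in the cytosol. In the ER, the sensors ATF6, IRE1 (gene Ern1) and PERK (gene Eif2ak3) are held inactive by the chaperone BiP (gene Hspa5) and start the unfolded protein response when BiP is drawn away to client proteins. The response raises chaperones and degradation genes through ATF6 and XBP1, and stress genes such as Atf4, Ddit3 and Trib3 through PERK. Proximal tubule cells make and recycle large amounts of membrane and secretory protein, and heat shock genes are also known to respond to tissue digestion.

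The response elements by which these genes are known are shown first, since the ER group was read as one set in what follows. RefSeq promoters of the GRCm38.p6 mouse build were matched by symbol for 29 of the 35 genes; Hspa8, Hsp90aa1, Hsp90ab1, Hsf1, Manf and Atf6 had no entry. The 250 bases before each start site were searched on both strands. The ER stress response element, CCAAT followed after 9 further bases by CCACG, stood in 6 of the 29, against 0.122% of 27025 promoters of the same length. The element contains the CCAAT box, which alone stood in 20 of the 29 and in 34.5% of all. Windows with 20 bases on each side are printed below, 5′ to 3′ on the gene's strand, with the element in capitals on either strand.
Hspa5, chr2:34772005-34772063, plus strand: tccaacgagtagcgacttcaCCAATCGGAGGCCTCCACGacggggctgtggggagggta
Hsp90b1, chr10:86705513-86705676, minus strand: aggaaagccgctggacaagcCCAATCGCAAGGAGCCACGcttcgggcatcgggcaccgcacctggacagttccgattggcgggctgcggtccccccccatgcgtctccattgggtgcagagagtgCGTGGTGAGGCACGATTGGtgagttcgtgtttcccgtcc
Calr, chr8:84847055-84847113, minus strand: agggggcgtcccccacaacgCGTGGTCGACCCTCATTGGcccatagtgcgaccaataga
Canx, chr11:50325780-50325838, minus strand: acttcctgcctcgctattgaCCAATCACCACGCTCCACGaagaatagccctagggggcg
Pdia6, chr12:17266471-17266529, plus strand: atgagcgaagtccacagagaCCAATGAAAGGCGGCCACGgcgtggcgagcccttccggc
Creld2, chr15:88819500-88819558, plus strand: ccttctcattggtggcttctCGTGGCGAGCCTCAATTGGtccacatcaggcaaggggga

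The element began 65 bases before the start site in Hspa5, 212 and 107 bases before it in Hsp90b1, 162 in Calr, 145 in Canx, 98 in Pdia6 and 126 in Creld2. The unfolded protein response element TGACGTGG stood in 0 of the 29 and in 0.503% of all promoters. A heat shock element written strictly as GAA, TTC and GAA with 2 bases between neighbours stood in 0.400% of all promoters and in 1 of the 29, the mitochondrial chaperonin gene Hspe1, where 2 overlapping matches began 89 and 84 bases before the start site.
Hspe1, chr1:55088039-55088096, plus strand: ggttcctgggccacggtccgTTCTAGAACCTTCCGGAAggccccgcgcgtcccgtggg

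A match describes the letters in a window and says nothing of binding in these cells. The inducible Hsp70 genes Hspa1a and Hspa1b are near-identical copies on chromosome 17, and their 250 upstream bases were identical at 247 positions (98.8%). Both windows are shown because the likeness of this pair limits every count given for either gene, with the 3 differing positions in capitals. No source used here says how the authors' counting divided reads between the copies, so the split between them is uncertain.
Hspa1a, chr17:34972157-34972406, minus strand: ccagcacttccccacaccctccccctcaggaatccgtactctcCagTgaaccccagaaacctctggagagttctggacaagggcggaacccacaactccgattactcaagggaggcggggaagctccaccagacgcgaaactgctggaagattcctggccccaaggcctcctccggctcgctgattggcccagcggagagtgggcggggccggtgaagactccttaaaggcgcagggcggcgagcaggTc
Hspa1b, chr17:34959239-34959488, minus strand: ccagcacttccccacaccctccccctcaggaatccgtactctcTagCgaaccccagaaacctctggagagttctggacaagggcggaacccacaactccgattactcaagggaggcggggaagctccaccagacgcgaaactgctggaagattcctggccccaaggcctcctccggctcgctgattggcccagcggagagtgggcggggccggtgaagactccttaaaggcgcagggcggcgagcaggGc

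The libraries held 24346733 (young), 13944270 (aged vehicle) and 21058975 (aged D+Q) counts, and 7734, 5701 and 7424 barcodes were kept as cells, with median depths of 2388, 1875 and 2285 counts. The 35 genes took 0.280%, 0.263% and 0.279% of the counts of kept cells. The median mitochondrial share was 6.02%, 4.45% and 6.02%, and pairs of libraries shared 28 to 38 barcodes. Cells were gated by markers, and 5 classes had enough cells to compare: proximal tubule (5286, 4190 and 5378 cells), thick ascending limb (410, 259 and 412), distal convoluted tubule (256, 168 and 219), endothelium (419, 235 and 376) and stroma of fibroblast and mural cells (121, 55 and 94). Within the proximal tubule gate the libraries filled the clusters unequally: cluster 12, led by Cyp4a14, held 1714, 458 and 1240 cells, and cluster 1, led by Cntnap5a, held 176, 1225 and 876. With 1 library per group no test between groups is possible. Each value stands for a library, and the 95% intervals (exact Poisson for CPM, counts scaled to a common library total, exact binomial for ratios and shares) cover counting error only. Below, a gene counts as higher or lower when its ratio of CPM is at least 1.5-fold, among genes with at least 30 counts summed over the 2 libraries compared and a mean of 5 CPM. Aged vehicle cells enter both the comparison with young and that with D+Q, so a value high or low in that library alone moves both in opposite directions.

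In the proximal tubule gate, levels of most of the 35 genes lay close together in the 3 libraries. Of the 29 genes past the floor in aged vehicle against young, 0 were at least 1.5-fold higher and 0 at least 1.5-fold lower, where 4.14% and 3.32% of all 11378 genes compared were. Their median log2 ratio was -0.07, against 0.07 over all genes. The interval of the ratio lay above 0 for 5 members and below 0 for 8, where this held for 28.7% and 14.7% of all genes. In aged D+Q against aged vehicle, 1 of 29 members (Dnajb1) was higher and 0 were lower, against 1.41% and 2.66% of all genes, with medians of 0.03 and -0.07. In aged D+Q against young, 0 of 30 members were higher and 0 lower, against 2.30% and 3.11% of all genes, with medians of 0.01 and 0.00, and intervals lay above 0 for 5 and below 0 for 5, against 18.7% and 18.0%.

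**Figure D1:**
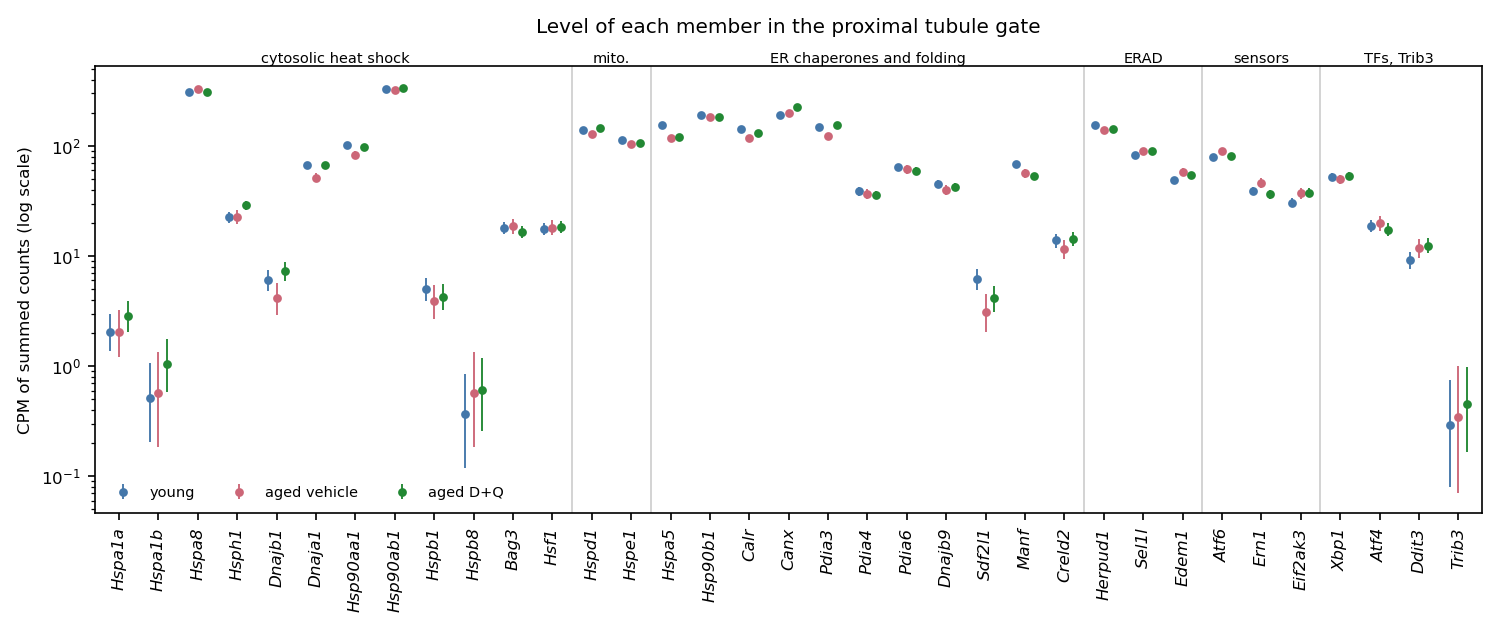
Level of each of the 35 genes in the proximal tubule gate, as CPM of the summed counts of gated cells (log scale), with exact Poisson 95% intervals, for the young, aged vehicle and aged D+Q libraries. Grey lines separate the 6 roles, and most points of a gene overlap or lie close, with Sdf2l1 (6.16, 3.10 and 4.14) and Dnajb1 (6.01, 4.13 and 7.30) among the wider spread.

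The cytosolic heat shock genes summed to 880, 861 and 893 CPM in proximal tubule cells of the young, aged vehicle and aged D+Q libraries. Hspa8, the constitutive Hsp70, stood at 310, 330 and 312 CPM, and Hsp90ab1, the constitutive Hsp90, at 328, 326 and 336 CPM. Both differed by less than 0.10 on the log2 scale in every comparison. The inducible genes were scarce: Hspa1a had 28, 18 and 38 counts (2.05, 2.06 and 2.86 CPM) and Hspa1b had 7, 5 and 14. At this depth Hspa1a gave log2 ratios of 0.02 (-0.93 to 0.91) for aged vehicle against young and 0.45 (-0.37 to 1.37) for D+Q against aged vehicle, and both were below the floor. No difference in Hspa1a was detectable at this depth.

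Dnajb1 and Dnaja1 encode Hsp40 co-chaperones, which hand clients to Hsp70, and both were lowest in the aged vehicle library. Dnajb1 had 82, 36 and 97 counts, which are 6.01, 4.13 and 7.30 CPM. Its log2 ratio was -0.53 (-1.15 to 0.04) for aged vehicle against young and 0.81 (0.26 to 1.42) for D+Q against aged vehicle. Dnaja1 stood at 67.2, 51.7 and 67.5 CPM, a log2 ratio of -0.38 (-0.54 to -0.21) and then 0.38 (0.22 to 0.55), with the young and D+Q libraries at the same level. Of the clusters in this gate, 8 held at least 50 gated cells in each library (0, 1, 4, 9, 10, 11, 12 and 14). In that order the Dnaja1 ratio of aged vehicle to young was -0.50, -0.13, -1.18, -0.08, -0.56, -0.14, -0.55 and 0.41. The ratio of D+Q to aged vehicle was 0.44, 0.57, 1.19, -0.13, 0.51, 0.41, 0.80 and -0.12. Cluster 14 had the opposite sign in both, and cluster 9, led by mitochondrial genes, in the second, and the intervals of these 3 ratios included 0. Some ratios with the shared sign were also near 0 (-0.13, -0.08 and -0.14 in clusters 1, 9 and 11). Intervals of the ratios with the shared sign are not printed here.

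Hsp90aa1, the inducible Hsp90, was also lowest in aged vehicle, with 103, 83.5 and 97.4 CPM (log2 ratios of -0.30 and 0.22). Hsph1, an Hsp110 that recharges Hsp70 with nucleotide, stood at 22.4, 22.6 and 28.8 CPM and was highest in the D+Q library, at a log2 ratio to aged vehicle of 0.35 (0.10 to 0.61). Bag3, the co-chaperone of selective autophagy, stood at 18.0, 18.7 and 16.6 CPM. Hsf1, the master factor of the response, stood at 17.6, 18.1 and 18.4 CPM, with a log2 ratio within 0.10 of 0 in each comparison. The small heat shock genes Hspb1 (68, 34 and 57 counts) and Hspb8 (5, 5 and 8 counts) were below the floor in aged vehicle against young.

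The mitochondrial chaperonin genes summed to 251, 232 and 254 CPM. Hspd1, the Hsp60 chamber, stood at 139, 127 and 147 CPM, and Hspe1, its Hsp10 lid, at 112, 104 and 107 CPM. Hspd1 gave log2 ratios of -0.13 for aged vehicle against young and 0.20 for D+Q against aged vehicle.

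The ER chaperones and folding enzymes summed to 1067, 952 and 1025 CPM. Of the 10 past the floor in aged vehicle against young, 9 had a ratio below 0 and 4 an interval below 0, and their median was -0.22. Over all genes compared, 40.7% had a ratio below 0, 14.7% had an interval below 0, and the median was 0.07. Hspa5, which encodes BiP, the chaperone that also restrains the sensors, had 2108, 1029 and 1604 counts, or 155, 118 and 121 CPM. The young library was the highest of the 3, and the intervals of the 2 aged libraries overlapped. The log2 ratio was -0.39 (-0.50 to -0.28) for aged vehicle against young, 0.03 (-0.08 to 0.15) for D+Q against aged vehicle and -0.36 (-0.45 to -0.26) for D+Q against young. Hsp90b1, the Hsp90 of the ER, which also carries the ER stress response element, stood at 191, 183 and 183 CPM, with a log2 ratio of -0.06 for aged vehicle against young.

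The share of proximal tubule cells with a Hspa5 count gave the same order. With every cell thinned to 1000 counts it was 13.9%, 10.8% and 11.2%, and without thinning 29.3%, 19.2% and 23.4%. Endothelial cells thinned alike gave 13.4%, 7.23% and 9.57%, and no gated class is known to lack Hspa5, so no background share can be given for it. Median counts per cell were 2375, 1826 and 2294 in the proximal tubule gate and 2540, 2550 and 2645 in the endothelium.

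Calreticulin (Calr) and calnexin (Canx), lectins that hold new glycoproteins, differed in pattern. Calr stood at 144, 119 and 131 CPM (log2 ratios of -0.27 and 0.14), and Canx at 192, 199 and 225 CPM (0.05 and 0.18), highest in the D+Q library. Among the protein disulfide isomerases, Pdia3 stood at 148, 124 and 155 CPM, with log2 ratios of -0.25 and 0.32, while Pdia4 (38.6, 36.8 and 35.8 CPM) and Pdia6 (64.4, 61.2 and 59.8 CPM) lay closer together. Manf, a secreted ER protein induced by ER stress, stood at 68.8, 56.4 and 53.3 CPM, with a log2 ratio of -0.37 (-0.51 to -0.23) for D+Q against young. Sdf2l1, a partner of BiP's co-chaperones, had 84, 27 and 55 counts, or 6.16, 3.10 and 4.14 CPM. Its log2 ratio was -0.97 (-1.68 to -0.35) for aged vehicle against young, where its mean was under the floor of 5 CPM, and -0.57 (-1.09 to -0.07) for D+Q against young. Dnajb9, the ER co-chaperone that loads BiP on IRE1, stood at 45.4, 39.9 and 42.8 CPM and Creld2, a secreted ER stress protein, at 13.9, 11.6 and 14.4 CPM.

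Genes of ER-associated degradation, which draws misfolded proteins out of the ER, summed to 288, 287 and 285 CPM. Herpud1, its most stress-responsive scaffold, stood at 157, 140 and 142 CPM, Sel1l, the adaptor of the ubiquitin ligase, at 82.2, 89.2 and 89.3 CPM, and Edem1, which marks glycoproteins for removal, at 49.0, 57.8 and 54.1 CPM. For aged vehicle against young Herpud1 had a log2 ratio of -0.16 and Edem1 one of 0.24.

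The 3 ER stress sensors stood higher in aged vehicle than in young cells. Atf6 stood at 80.1, 89.2 and 80.5 CPM, Ern1 at 38.9, 46.2 and 36.3 CPM, and Eif2ak3 at 30.5, 37.0 and 37.7 CPM. For aged vehicle against young the log2 ratios were 0.16, 0.25 and 0.28 (0.07 to 0.49), each with an interval above 0. For D+Q against aged vehicle Ern1 gave -0.35 (-0.54 to -0.15), Atf6 -0.15 and Eif2ak3 0.03, so that in the D+Q library Ern1 and Atf6 lay near young and Eif2ak3 near aged vehicle. These messages are not the activated proteins: IRE1 and PERK act through phosphorylation and ATF6 through cleavage, which counts do not show.

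Among the downstream factors, Xbp1 stood at 52.7, 49.9 and 53.4 CPM and Atf4 at 18.6, 19.8 and 17.4 CPM. Counts per gene do not separate spliced from unspliced Xbp1. Ddit3, which encodes CHOP, a factor of stress-induced death, had 125, 103 and 165 counts, or 9.16, 11.8 and 12.4 CPM. Its log2 ratio was 0.37 (-0.02 to 0.75) for aged vehicle against young, 0.07 for D+Q against aged vehicle and 0.44 (0.09 to 0.79) for D+Q against young. Trib3, a pseudokinase downstream of CHOP, had 4, 3 and 6 counts and cannot be compared.

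**Figure D2:**
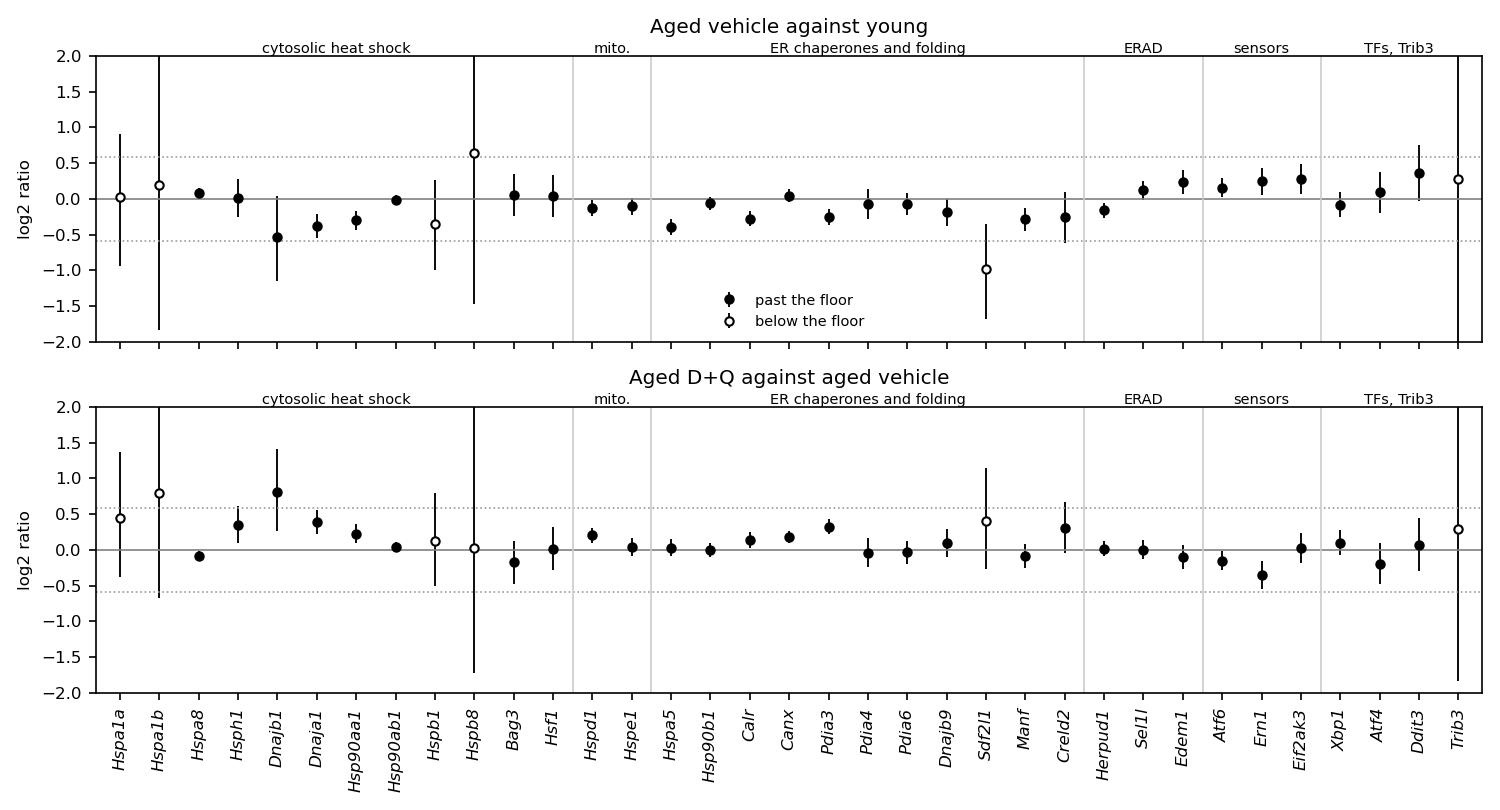
Log2 ratio of CPM for each gene in the proximal tubule gate, aged vehicle against young above and aged D+Q against aged vehicle below, with exact 95% intervals that cover counting error only and are clipped at 2 and -2. Open points are below the floor and dotted lines mark 1.5-fold; Dnajb1 in the lower panel (0.81) is the only filled point past a dotted line.

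The direction of a ratio went with gene span, the distance from start to end of the RefSeq gene. Over all genes compared in the proximal tubule gate, the median log2 ratio of aged vehicle to young was -0.11 for genes of 0 to 5 kb, -0.11 for 5 to 10 kb, -0.02 for 10 to 20 kb, 0.09 for 20 to 50 kb, 0.18 for 50 to 100 kb and 0.27 above 100 kb. The members of those bins had medians of -0.23, -0.12, -0.07, 0.05, 0.27 and 0.16. The sensors are long genes (Atf6 164.1 kb, Ern1 90.2 kb, Eif2ak3 60.8 kb) and Hspa5 (4.44 kb), Calr (4.84 kb), Manf (3.19 kb) and Sdf2l1 (2.25 kb) are short. In D+Q against aged vehicle the all-gene medians ran from -0.00 below 5 kb to -0.22 above 100 kb. The nuclear RNA Malat1 stood at 165615, 134958 and 155340 CPM and Neat1 at 527, 379 and 263 CPM. The part of span in the ratios of the 35 genes was not tested.

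Chaperone levels also went with the mitochondrial share of a barcode, more widely than with the groups. Levels in this paragraph and the next are CPM of nuclear-encoded counts. In the young library, proximal tubule barcodes with 0 to 2.5%, 2.5 to 5%, 5 to 10%, 10 to 25% and 25 to 50% mitochondrial counts held 525, 642, 731, 1441 and 4283 CPM of cytosolic heat shock genes. The aged vehicle library gave 487, 604, 931, 1884 and 4199 CPM, and the D+Q library 520, 645, 801, 1494 and 4120 CPM. ER chaperones and folding enzymes went from 690 to 4284 CPM in young, 645 to 4177 in aged vehicle and 657 to 4305 in D+Q. Sensor genes ran the other way, from 191 to 113 CPM in young and from 208 to 98.0 in aged vehicle. Between the lowest bin and that of 10 to 25%, 13 of 28 members in young, 16 of 28 in aged vehicle and 14 of 27 in D+Q were at least 2-fold higher, where 15.5%, 20.8% and 23.0% of all genes were.

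**Figure D3:**
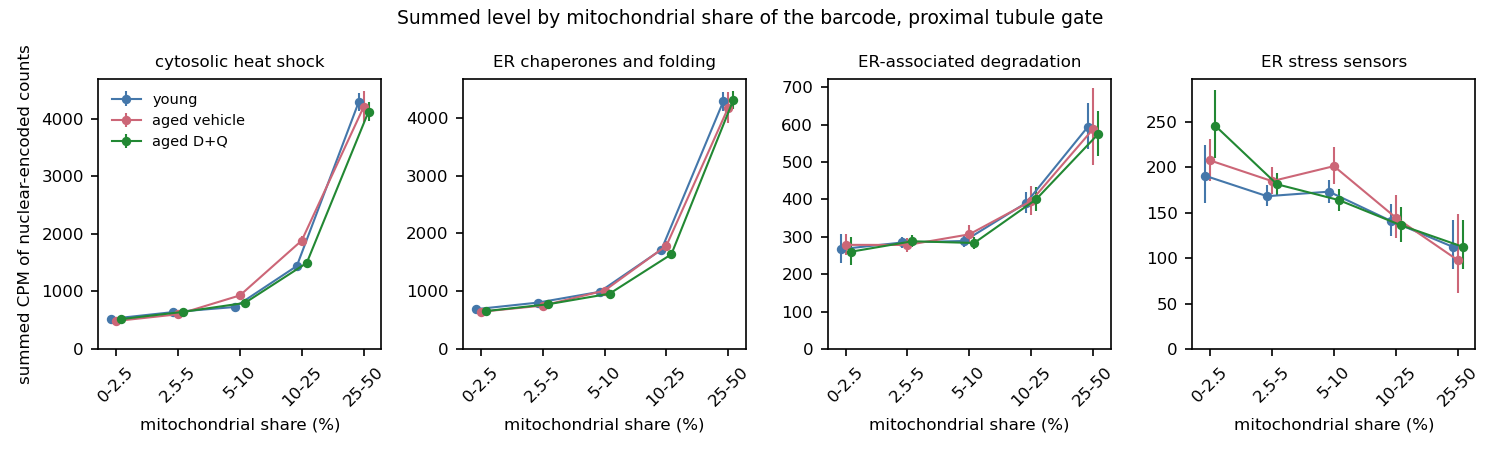
Summed CPM of nuclear-encoded counts for 4 roles in the proximal tubule gate, by the mitochondrial share of the barcode (5 bins, in percent), with exact Poisson 95% intervals for the 3 libraries. Cytosolic heat shock genes reach 4283, 4199 and 4120 CPM in the highest bin from 525, 487 and 520 in the lowest, whereas the sensors are lower in the highest bin.

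The libraries differed in how their proximal tubule cells filled these bins. The lowest bin held 4.07% of young, 14.8% of aged vehicle and 3.48% of D+Q cells, and the bin of 25 to 50% held 8.38%, 4.27% and 9.48%. Hsp90aa1, lowest in aged vehicle over the whole gate, stood at 56.4, 39.8 and 65.7 CPM in the lowest bin. In the bin of 10 to 25% it stood at 160, 181 and 156 CPM, highest in aged vehicle. Within bins, from lowest to highest, the Hspa5 log2 ratio of aged vehicle to young was -0.64, -0.38, -0.15, -0.08 and -0.02, and that of D+Q to young -0.21, -0.32, -0.29, -0.58 and -0.25. The cytosolic group, which was level over the whole gate, had ratios of aged vehicle to young of -0.11, -0.09, 0.35 (0.27 to 0.43), 0.39 (0.30 to 0.47) and -0.03, so it was higher in aged vehicle cells of 5 to 25%. For the ER chaperones and folding enzymes as a group these ratios were -0.10, -0.09 (-0.17 to -0.02), 0.03, 0.06 and -0.04. The sensors as a group gave 0.12, 0.14, 0.22 (0.04 to 0.39), 0.04 and -0.18. In both of these roles the intervals not printed included 0. With the bins weighted to a common mix, an alternative added after seeing the data, the Hspa5 ratio was -0.18 for aged vehicle against young and -0.16 for D+Q against aged vehicle, and the median over members turned to 0.03 and -0.03. Within clusters 0, 1, 4, 9, 10, 11, 12 and 14 the Hspa5 ratio of aged vehicle to young was -0.09, -0.45, -0.67, -0.03, -0.42, -0.97, -0.07 and -0.20. All 8 were below 0, and the interval lay below 0 in clusters 4, 10 and 11. Cluster 4 is led by leukocyte genes such as Ptprc. Differences between the clusters were not tested. At the common mix, D+Q against young had a ratio of -0.34.

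Markers of other cells also moved with the groups inside the proximal tubule gate. The 5 erythroid markers summed to 113, 458 and 108 CPM, the 13 leukocyte markers to 49.9, 91.2 and 52.2 CPM and the 7 urothelium markers to 75.4, 4.59 and 21.4 CPM. All 5 erythroid markers were detected in each library, while 1 urothelium marker was at 0 in aged vehicle and 1 leukocyte marker at 0 in young. The part of these cells in the ratios above was not tested.

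Over all kept cells, in aged vehicle against young, 0 of 31 members were higher and 3 lower (Sdf2l1, Dnajb1 and Hspb1), where 3.52% and 3.41% of all genes were. In D+Q against aged vehicle 1 of 30 was higher (Dnajb1) and 0 lower, against 1.35% and 1.75%, and in D+Q against young 0 of 32 were higher and 1 lower (Sdf2l1), against 1.86% and 2.84%. Hspa1a had 124, 36 and 111 counts (5.72, 2.74 and 5.78 CPM) and Hspa1b 37, 16 and 65 (1.71, 1.22 and 3.39 CPM). Both genes were under the floor of 5 CPM in the comparisons with aged vehicle. Hspa1a was lowest in that library, at a log2 ratio of -1.05 (-1.64 to -0.51) to young and 1.06 (0.52 to 1.66) for D+Q against it. Hspb1 had 287, 113 and 225 counts (13.2, 8.61 and 11.7 CPM), Sdf2l1 147, 50 and 86 counts (log2 ratio -0.82 for aged vehicle against young), and Dnajb1 156, 61 and 151 counts (-0.62 and then 0.75).

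Hspa1a and Hspb1 had their highest levels in urothelium, which the libraries held in unequal number. With the 3 libraries summed, Hspa1a stood at 2.36 CPM in proximal tubule cells, 17.9 in stroma, 25.5 in connecting tubule and principal cells and 60.9 in urothelium, the lining of the renal pelvis. Hspb1 stood at 4.46 CPM in proximal tubule, 23.2 in endothelium, 39.3 in stroma and 233 in urothelium, and Hsp90ab1 at 331 CPM in proximal tubule and 1695 in urothelium. Hspa5 was highest in stroma (324 CPM) and urothelium (345 CPM), against 133 in proximal tubule. The urothelium gate held 90, 9 and 50 cells. Without those cells, also an alternative added after seeing the data, the Hspa1a ratios were -0.80 and 0.88 and the Hspb1 ratios -0.38 and -0.04, so that Hspb1 turned direction between D+Q and aged vehicle. Fewer cells of a class and less RNA per cell cannot be told apart in sums over all cells.

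**Figure D4:**
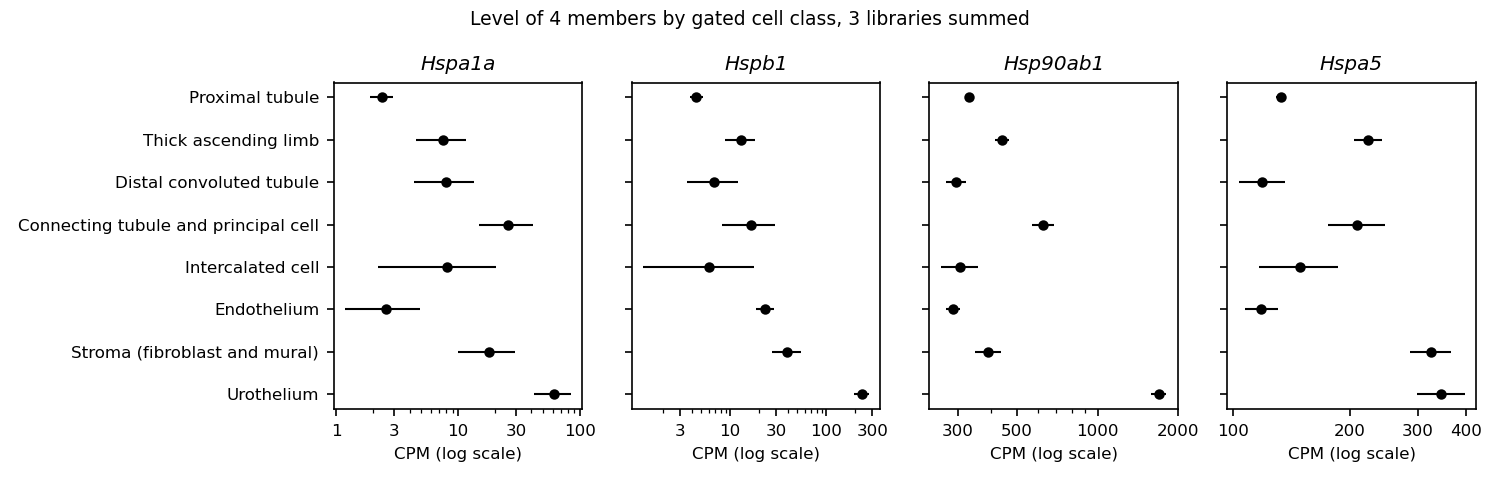
CPM (log scale) of Hspa1a, Hspb1, Hsp90ab1 and Hspa5 in 8 gated cell classes, with the counts of the 3 libraries summed and exact Poisson 95% intervals. Urothelium is highest in each panel, with 60.9 CPM for Hspa1a and 233 for Hspb1 against 2.36 and 4.46 in the proximal tubule.

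Cells with a count of Hspa1a or Hspa1b numbered 135, 45 and 143, or 1.75%, 0.789% and 1.93% of kept cells. These shares were not thinned to a common depth. The cells with a count had median depths of 3352, 2235 and 2775 counts, against 2380, 1873 and 2281 in the other cells. Their median mitochondrial share was 12.7%, 9.03% and 10.3%, against 5.97%, 4.44% and 5.98% in the other cells, and urothelium made up 13.3%, 0% and 11.2% of them. In the young library they carried more Hsph1 (61.9 against 21.4 CPM), Hspb1 (81.3 against 11.4) and Hspa5 (338 against 161), and in the D+Q library more Hspa8 (518 against 305). In the aged vehicle library Hspa5 stood at 191 against 125 CPM. These genes were picked among the members that were higher. In the young library Dnajb1 (3.54 against 7.29 CPM, from 2 counts), Hsf1 (14.1 against 17.7), Hspe1, Manf and Herpud1 were among those that stood lower. In the aged vehicle library Dnaja1 stood at 43.1 against 53.3 CPM. The ratio intervals of these lower genes included 0. Cells were divided here by 2 members of the set, so these values describe which members were counted together.

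The other 4 classes were read with more caution, because their gates carried proximal tubule RNA: proximal tubule markers stood there at 24.8% to 74.3% of their level in the proximal tubule gate. The thick ascending limb is a segment of the loop that reabsorbs salt. In aged vehicle against young, 3 of 24 members were higher and 3 lower there, where 19.1% and 6.24% of all genes were. Between D+Q and aged vehicle 4 of 25 were higher and 1 lower, against 7.08% and 14.8%, and in D+Q against young 2 of 27 were higher and 0 lower, against 9.12% and 5.57%. Hspa5 had 237, 85 and 244 counts, or 234, 147 and 258 CPM, so the aged vehicle library was lowest and its interval met neither of the others. The log2 ratios were -0.66 (-1.04 to -0.30) and 0.81 (0.45 to 1.18). Pdia3 followed the same order with 191, 61 and 182 counts (189, 106 and 193 CPM), at -0.83 and 0.86. Calr (164, 121 and 193 CPM) was higher in D+Q than in aged vehicle (0.66). Hsph1 had 23, 24 and 34 counts (22.7, 41.6 and 36.0 CPM), at 0.87 (-0.01 to 1.76) for aged vehicle against young, 0.65 for D+Q against young. Bag3 had 24, 8 and 27 counts, at -0.72 and 0.98, and Hsf1 had 12, 13 and 19. The sensors Eif2ak3 (40.5, 69.3 and 55.0 CPM) and Ern1 (22.7, 39.8 and 24.3 CPM) were highest in aged vehicle, and the Ern1 interval included 0 in both comparisons. Eif2ak3 had 41, 40 and 52 counts. Its CPM interval in aged vehicle (49.5 to 94.3) overlapped those in young (29.0 to 54.9) and D+Q (41.1 to 72.2). Such CPM intervals can overlap even where the interval of a ratio leaves out 0, and the ratio interval of Eif2ak3 is not printed here.

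In the same 3 libraries, proximal tubule markers in thick ascending limb cells stood at 51.5%, 67.9% and 45.6% of the proximal tubule gate's level, so the aged vehicle cells carried the most of that RNA, and their median mitochondrial share was 13.0%, 7.67% and 10.9%. In the cells with a low proximal tubule marker share, a selection made after seeing the data (234, 89 and 274 cells), the Hspa5 log2 ratios were -0.51 and 0.68. The part of mitochondrial share in this difference was not tested.

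In the distal convoluted tubule, 1 of 22 members was higher and 6 lower in aged vehicle against young, where 22.6% and 7.55% of all genes were. For D+Q against aged vehicle 3 of 21 were higher and 2 lower, against 8.46% and 22.5%, and in D+Q against young 0 of 22 were higher and 2 lower, against 7.99% and 8.05%. Of the 6 lower genes in aged vehicle, 5 were ER chaperones and folding enzymes. Pdia4 had 30, 6 and 15 counts, at -1.77 (-3.42 to -0.57) for aged vehicle against young. Dnajb9 had 30, 10 and 27 counts, at -1.08 and then 1.34 (0.29 to 2.59) for D+Q against aged vehicle. Hspa5 stood at 152, 87.8 and 105 CPM (-0.78 for aged vehicle against young), and in cells of low proximal tubule marker share at -0.87. Hsp90aa1 had 69, 30 and 68 counts (97.9, 58.5 and 128 CPM), at 1.11 (0.49 to 1.80) for D+Q against aged vehicle. Manf had 49, 24 and 16 counts and was lowest in the D+Q library, at -1.18 (-2.12 to -0.37) to young. Pdia6 had 66, 26 and 30 counts (93.6, 50.7 and 56.4 CPM), lowest in aged vehicle, and stood at -0.72 for D+Q against young. Proximal tubule markers stood at 47.2%, 68.4% and 37.6% of the proximal tubule gate's level in these cells.

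In the endothelium, 0 of 28 members were higher and 4 lower in aged vehicle against young, where 9.70% and 8.71% of all genes were, and 4 of 29 were higher and 0 lower in D+Q against aged vehicle, against 8.27% and 9.18%. Between D+Q and young 0 of 30 were higher and 0 lower, against 6.09% and 7.87%. Bag3 had 52, 10 and 33 counts (34.6, 12.9 and 27.1 CPM), at -1.37 (-2.57 to -0.44) and 1.03 (0.02 to 2.26). Hsph1 had 33, 8 and 25 counts (-1.03 and 0.94), and Hsp90aa1 125, 34 and 88 counts (83.2, 43.7 and 72.3 CPM, -0.91 and 0.71). The fourth lower gene in aged vehicle was Dnajb9, with 74, 19 and 41 counts (-0.98), and the fourth higher gene in D+Q was Pdia3, with 136, 91.3 and 139 CPM (0.60). Dnajb1 had 17, 1 and 15 counts and Hspa1a 4, 0 and 5. The exact Poisson 95% limit for the 0 counts of Hspa1a in aged vehicle cells is 4.74 CPM. Its near-identical copy Hspa1b had 1, 2 and 5 counts, and the split of reads between the copies is uncertain. Bag3, Hsph1, Hsp90aa1 and Dnajb1 were each lowest in the 235 aged vehicle cells, whereas Dnaja1 stood at 60.6, 61.7 and 57.5 CPM. Proximal tubule markers stood at 63.5%, 74.3% and 56.6% of the proximal tubule gate's level here, and 35, 59 and 37 cells lay near the gate's threshold. In cells of low marker share (160, 53 and 180), where the aged vehicle library had 1 count of Bag3, 1 of Hsph1 and 7 of Hsp90aa1, the ratios to young were -1.79, -0.83 and -0.83, each with an interval that included 0. Hsf1 had 26, 14 and 31 counts, with a log2 ratio of 0.55 for D+Q against young.

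In the stroma, several ER and Hsp90 members were highest in the aged vehicle library. With 55 aged vehicle cells, 6 of 18 members were higher and 1 lower against young, where 15.5% and 17.3% of all genes were. In D+Q against aged vehicle 1 of 16 was higher and 5 lower, against 17.2% and 14.0%, and in D+Q against young 3 of 21 were higher and 1 lower, against 13.0% and 12.0%. Hspa5 had 129, 69 and 74 counts, or 310, 526 and 253 CPM, at 0.77 (0.32 to 1.19) and -1.06 (-1.55 to -0.56). Hsp90aa1 had 55, 29 and 18 counts (132, 221 and 61.5 CPM), at 0.75, -1.83 (-2.78 to -0.95) and -1.08. Hsp90ab1 stood at 349, 571 and 366 CPM, Hsp90b1 at 325, 518 and 304 CPM, and Pdia3 at 154, 282 and 181 CPM, each highest in aged vehicle. Pdia6 stood at 81.7, 160 and 147 CPM, high in both aged libraries (0.98 against young, and 0.84 for D+Q against young). Eif2ak3 had 30, 4 and 18 counts, Hspb1 20, 8 and 5, and Atf6 40, 9 and 39 (0.90 for D+Q against aged vehicle). Proximal tubule markers stood at 40.2%, 25.9% and 24.8% of the proximal tubule gate's level here, and in cells of low marker share (90, 46 and 80) Hspa5 gave 0.49 and -1.06 and Hsp90aa1 0.77 and -1.96. Of the stroma cells, 46, 23 and 48 lay near the gate's threshold. With that threshold doubled 56, 23 and 27 cells were left, and gene ratios in them are not reported here. The gate joins fibroblasts with mural cells, and their proportions in each library were not tested.

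**Figure D5:**
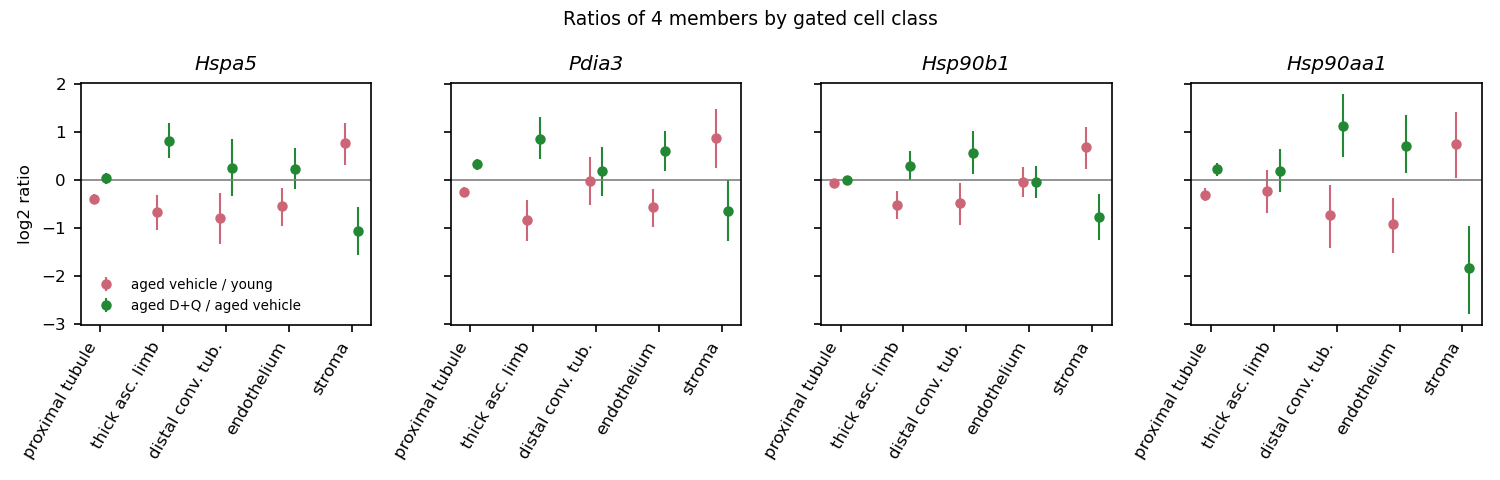
Log2 ratios of Hspa5, Pdia3, Hsp90b1 and Hsp90aa1 in 5 gated cell classes, aged vehicle against young and aged D+Q against aged vehicle, with exact 95% intervals for counting error. The stroma (Hspa5 0.77 and -1.06) lies on the opposite side of 0 from the thick ascending limb (-0.66 and 0.81).

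The rest of the pathway was followed in 9 further lists of 154 symbols, of which 148 were in the files. In the proximal tubule gate, aged vehicle against young, where 4.14% of all genes were 1.5-fold higher and 3.32% lower (median 0.07), 0 of 28 other cytosolic chaperones and co-chaperones were either (median 0.00), 0 of 8 subunits of the TRiC chaperonin (median -0.09), 0 of 8 other mitochondrial proteostasis genes (-0.06), 0 of 13 other ER-associated degradation genes (-0.02) and 0 of 8 other sensors and transducers (0.12). Of 31 further ER folding and import genes 1 was higher, the prolyl isomerase Fkbp11 (65 against 67 counts, log2 ratio 0.60), and 0 were lower. Of 18 PERK, ATF4 and integrated stress response targets 0 were higher and 2 lower, with a median of -0.19: Nupr1 (29 against 110 counts, -1.26), which was a leading gene of the urothelium cluster, and Psat1, an enzyme of serine synthesis (46 against 110 counts, -0.60). Urothelium markers in the same gate summed to 75.4 (young) and 4.59 CPM (aged vehicle), and their part in the Nupr1 value was not tested. The single other small heat shock gene past the floor, Cryab, which encodes αB-crystallin, stood at 30.8, 65.3 and 42.4 CPM, at 1.08 (0.90 to 1.27) for aged vehicle against young and -0.62 (-0.79 to -0.45) for D+Q against aged vehicle. Dnaja2, an Hsp40 related to Dnaja1, stood at 63.3, 73.0 and 111 CPM. It was the 1 of 28 cytosolic genes higher in D+Q than in aged vehicle (0.60), where 1.41% of all genes were higher.

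Immediate early genes, which digestion of tissue is known to induce, gave 1 higher (Btg2, 0.70) and 0 lower of 10 in aged vehicle against young and 0 higher and 3 lower in D+Q against aged vehicle (Btg2 -0.70 and Junb -0.69 among them), against 4.14% and 3.32% of all genes in the first comparison and 1.41% and 2.66% in the second. Digestion at 37 °C was common to all 3 libraries per the labels, over a stated range of times, and no source used here says whether the times differed between libraries.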

How the data were processed

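Single-cell 3′ libraries of mouse kidney were measured, 1 per group. The deposited values are whole-number counts per gene and barcode. The submitters' processing notes name the builds GRCm39 and mm10 with no role, and the aligner was not given in the sources used here. Groups come from the labels. Barcodes with over 50% mitochondrial counts or under 200 genes were left out. Doublets were taken as the highest Scrublet scores at 0.8% per 1000 barcodes, since the automatic threshold called 2, 0 and 1. Cells were gated by fixed markers, needing 6 counts over 2 markers and 3 times the library's share; for the proximal tubule, 0.5 times that share and no other class at 3 counts. These gate thresholds were set after the marker distribution and clusters had been seen. Within each library the counts of a class's cells were added and scaled to CPM. Ratios carry a prior of 0.5 counts, and the floor is 30 counts and a mean of 5 CPM. No test was run, because each group has 1 library. The 35 genes and the other lists were chosen with earlier results of these data known. Full values are given for the 4 members with the largest log2 ratio per comparison in the proximal tubule and in all kept cells among those with 20 counts, for Hspa1a, Hspa1b, Hspa5, Hsp90b1, Xbp1, Atf4, Ddit3 and Hsf1, and for the 2 largest per class and comparison elsewhere; genes of other lists are named from the 2 largest of their list. Other members were named after their values were seen. Ddit3 has 2 identifiers, of which the second has 0 counts. Sums and ratios were checked on simulated data. Alternatives were other scalings (edgeR 4.0.16 TMM, median of ratios), floors, filters and gates. Python 3.11.15, scanpy 1.11.5, leidenalg 0.10.2, numpy 2.4.6, scipy 1.17.1, pandas 2.3.3 and R 4.3.3 were used.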

Additional observations from a re-analysis of the deposited data

Results flagged for a closer look

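Some members had ratios on opposite sides of 0 in different cell classes, each with an interval for counting error that left out 0. None of these differences between classes was tested, since each class has 1 library per group. For aged vehicle against young, Hspa5 had a log2 ratio of 0.77 in the stroma, -0.66 in the thick ascending limb and -0.78 in the distal convoluted tubule. Pdia3 stood at 0.88 in the stroma and -0.83 in the thick ascending limb, and Pdia6 at 0.98 in the stroma and -0.87 in the distal convoluted tubule. Hsp90aa1 stood at 0.75 in the stroma, -0.73 in the distal convoluted tubule and -0.91 in the endothelium. For D+Q against aged vehicle, Hspa5 stood at 0.81 in the thick ascending limb and -1.06 in the stroma, and Hsp90aa1 at 1.11 in the distal convoluted tubule, 0.71 in the endothelium and -1.83 in the stroma. For D+Q against young, Pdia6 stood at 0.84 in the stroma and -0.72 in the distal convoluted tubule. The aged vehicle library enters both of the first comparisons, and its stroma held 55 cells, of which 23 lay near the gate's threshold.

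The barcodes left out for over 50% mitochondrial counts (385 young, 82 aged vehicle and 149 D+Q) also carried these genes. Their cytosolic heat shock genes summed to 4078, 4293 and 4080 CPM of nuclear-encoded counts, and their ER chaperones and folding enzymes to 5490, 4816 and 4805 CPM. The cytosolic values are close to those of proximal tubule cells with 25 to 50% mitochondrial counts.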

How the results depend on the processing

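With 1 library per group the values rest on single libraries, and small classes and genes of a few counts are limited by depth. No paired analysis was possible because each group has 1 library and no result comes from a test. Among the genes with full values in all kept cells and in the proximal tubule gate, no direction of a called value was reversed. Single-gene ratios in the other cell classes were not part of this check. In the proximal tubule the median over members changed sign in both comparisons with aged vehicle at the 25% limit and at the common mix. Over all kept cells, the 1 member lower in D+Q against young became 0 under TMM, median of ratios, a floor of 20 CPM, a mitochondrial limit of 25%, no doublets left out, no urothelium gate and the common mix. The 3 lower in aged vehicle against young became 0 at 20 CPM and at the 25% limit, 2 with no mitochondrial limit, no doublets left out, no urothelium gate and the common mix, and 4 with no floor. The 1 higher in D+Q against aged vehicle became 3 with no floor and 0 at 20 CPM, and the 0 higher in D+Q against young became 1 with no floor. In the proximal tubule, the 0 lower in aged vehicle against young became 1 under TMM, median of ratios, no floor, no doublets left out, the mean over cells, clusters in place of the gate and the common mix, and the 0 higher became 1 with no floor. The 1 higher in D+Q against aged vehicle became 2 with no floor and 0 at 20 CPM. In D+Q against young the 0 higher became 2 with no floor, and the 0 lower became 1 with no mitochondrial limit, a doubled gate and clusters. The share of proximal tubule cells with a Hspa5 count was 18.4%, 14.1% and 15.5% at 1400 counts and 29.3%, 19.2% and 23.4% unthinned. The causes of these shifts were not tested.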

Other observations

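Over all kept cells, Nupr1, a stress-responsive chromatin factor, had 569, 80 and 252 counts in the young, aged vehicle and D+Q libraries. Its log2 ratio was -2.10 for aged vehicle against young and 1.10 for D+Q against aged vehicle. The urothelium gate, with 90, 9 and 50 cells, held 229, 3 and 100 of these counts. Without that gate, an alternative added after seeing the data, the ratios were -1.43 and 0.44. Among immediate early genes, Fos had 276 counts in young and 21 in D+Q, a log2 ratio of -3.51, and Egr1 gave -2.04 for D+Q against aged vehicle.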
